A study of Mus musculus with 12 samples.

Results

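The immediate early response genes were followed across the 12 libraries of the series as 10 members, Fos, Fosb, Jun, Junb, Egr1, Egr2, Ier2, Ier3, Nr4a1 and Atf3, taken by their symbols from the 21899 genes of the table. All 10 were found and all 10 passed the filter on low counts, as 14393 genes did. The libraries came from colon tissue of 6 PCK1 intestinal epithelial cell-specific knockout mice (CKO in the labels, knockout here) and 6 littermate control mice (WT in the labels, control here), and every mouse of both groups had received 2.5% dextran sulfate sodium (DSS), an agent that injures the colon lining, for 7 days. The labels name no Cre driver, strain, sex or age. Untreated mice are not analysed here, and each value compares 2 genotypes in DSS-exposed colon. Whole tissue was sequenced, so fewer cells of a type and less RNA per cell cannot be told apart.

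Immediate early genes are switched on within minutes of a stimulus, without new protein synthesis. Signalling through MAP kinases leads to phosphorylation of transcription factors that already sit on their promoters, such as CREB and the ETS partners of SRF. Most encode transcription factors: Fos and Jun proteins pair through leucine zippers to form AP-1, EGR proteins bind GC-rich sites through zinc fingers, and Nr4a1 (Nur77) is an orphan nuclear receptor. Their transcripts are short-lived, partly because AU-rich elements in the 3' UTR recruit decay factors, and in the gut they respond to growth factors, cytokines, microbial products and injury.

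The promoters are shown because the members share a rapid mode of activation that the choice of genes did not draw on at the level of sequence. RefSeq promoter windows (GRCm38.p6) matched 8 members, all but Egr1 and Ier2. In the 250 bases before the start, 5 of the 7 members with a single annotated start held the CRE half-site TGACG on either strand, against 17.8% of 32841 windows of that length in the table. The 120 bases before the start follow for these 5 genes, for Egr2 and for Ier3, with CRE half-sites and the CArG box, the SRF element, in capitals. Ier3, the member with the largest difference between genotypes, holds neither in these bases. Egr2 has 5 annotated starts, and the one shown was picked because it holds most of these matches, so it was left out of the counts.
Fos (chr12:85473770-85473889, plus strand): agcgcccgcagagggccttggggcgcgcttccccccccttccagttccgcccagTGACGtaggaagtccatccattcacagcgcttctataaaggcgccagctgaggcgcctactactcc
Fosb (chr7:19310046-19310165, minus strand): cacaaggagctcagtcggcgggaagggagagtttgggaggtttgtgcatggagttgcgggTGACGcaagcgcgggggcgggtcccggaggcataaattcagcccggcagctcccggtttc
Junb (chr8:84978749-84978868, minus strand): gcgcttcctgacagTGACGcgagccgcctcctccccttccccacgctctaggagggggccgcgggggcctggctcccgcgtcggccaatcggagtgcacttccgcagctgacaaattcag
Nr4a1 (chr15:101266726-101266845, plus strand): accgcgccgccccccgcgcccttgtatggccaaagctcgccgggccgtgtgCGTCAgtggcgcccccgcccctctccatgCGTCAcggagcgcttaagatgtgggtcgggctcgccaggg
Atf3 (chr1:191183334-191183453, minus strand): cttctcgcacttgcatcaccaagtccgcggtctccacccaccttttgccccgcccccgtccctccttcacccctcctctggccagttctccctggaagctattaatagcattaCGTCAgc
Egr2 (chr10:67537749-67537868, plus strand): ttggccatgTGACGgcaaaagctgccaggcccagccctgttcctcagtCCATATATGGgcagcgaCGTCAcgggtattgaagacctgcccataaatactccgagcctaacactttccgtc
Ier3 (chr17:35821593-35821712, plus strand): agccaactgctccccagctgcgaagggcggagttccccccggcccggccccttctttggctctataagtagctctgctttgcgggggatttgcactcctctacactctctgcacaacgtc

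The half-site shown for Fos lay 66 to 62 bases before the start, and that of Fosb 60 to 56 bases before it. The full palindrome TGACGTCA was found in 0 of the 7 windows (1.55% of all windows), and the CArG box in 0 of the 7 (1.47% of all windows). Only 250 bases were searched, so these counts cannot show whether a member has a CArG box farther upstream. Egr1 and Ier2 were not searched at all. The NF-kappaB consensus, searched on both strands, was found in the windows of Fos, Fosb and Ier3 (3.9% of all windows), in Ier3 at 92 to 83 bases before the start. The EGR site GCGNGGGCG was found for Fosb and Nr4a1 (4.7% of all windows), the AP-1 site TGANTCA for 0 of 7 (6.75%) and the TATA box, read on the gene's own strand as TATAAA, for Fos (7.59%). In Nr4a1 the EGR site does not overlap either half-site shown. The median GC content of the 8 windows was 63.4%, against 52.4% over all windows. The shares of all windows given here, also for the CRE half-site, were not matched for GC content. These are matches of letters and not evidence of binding.

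Most of the genes were shorter than the typical tested gene, and most held more ATTTA in the 3' UTR. By GENCODE M21 (GRCm38) the median length of the 10 genes was 4698 bases, from 1240 for Ier3 to 47744 for Atf3, against a median of 24106 bases over 14372 tested genes. The pentamer ATTTA, the core of AU-rich elements, occurred at a median of 2.89 per 1000 bases of 3' UTR in the members and 1.33 in tested genes. Genes with very short 3' UTRs were left out of the latter median and of the share given for Ier3. The longer stretch TTATTTATT was found in 1 of the 10 members, Fos (10%), against 7.31% of 14126 tested genes with a 3' UTR. Ier3 held 5 pentamers in 613 bases, 8.16 per 1000, at or above 98.5% of genes, followed by Nr4a1 with 5.52 and Fos with 4.91. Ier2 held 0 in 755 bases and Fosb 0.466 per 1000, both below the median of all genes. The 30 bases that hold the most pentamers (capitals) are given for the 3 densest members.
Ier3 (chr17:35822484-35822513, plus strand): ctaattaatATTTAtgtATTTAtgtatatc
Nr4a1 (chr15:101274701-101274730, plus strand): gATTTAtatttgtgtattttcctggATTTA
Fos (chr12:85477100-85477129, plus strand): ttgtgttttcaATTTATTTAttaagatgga

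Library totals ran from 15348192 to 18211663 counts in the knockout and from 15881625 to 19138507 in the control. Pck1 was below every control library in every knockout library, at 4.19 ± 2.10 against 53.0 ± 17.8 CPM (SD, n = 6). CPM are read counts scaled by library depth and a TMM factor. Several libraries stood apart from their groups. Control replicate 4 carried more neutrophil marker RNA (685 CPM summed over 12 markers) than the other controls, at 147 to 292, and knockout replicate 4 carried the least of the knockouts (299, against 335 to 1442). Exocrine pancreas markers summed to 29408 CPM in control replicate 6 and to between 38.3 and 3749 in the other libraries. Colon epithelial markers were plentiful in all, at 13474 to 19643 CPM.

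No member passed the threshold of the main test. By edgeR's quasi-likelihood test, adjusted over all 14393 genes, 0 of 10 members were called at an adjusted p of 0.05, where 0.0556% of all genes were called (8 genes; 0.0278% higher and 0.0278% lower). At an unadjusted p under 0.05 there were 2 members, Ier3 and Junb, both higher in the knockout, where 13.1% of all genes were higher, 9.48% lower and 22.6% past that limit in either direction. For 0 members did the groups lie fully apart, as they did for 0.882% of all genes in the higher direction. DESeq2's test called the same 2 members, with 7.13% of the genes it tested called higher. Limma voom called 0, with 0.208% of all genes called higher. The log2 fold change of knockout over control was above 0 for 7 members and below 0 for 3, where 45.1% of all tested genes were above 0. The median was 0.32 for the members against -0.03 over all tested genes. The members spanned -0.56 for Fosb to 1.34 for Ier3.

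**Figure D1:**
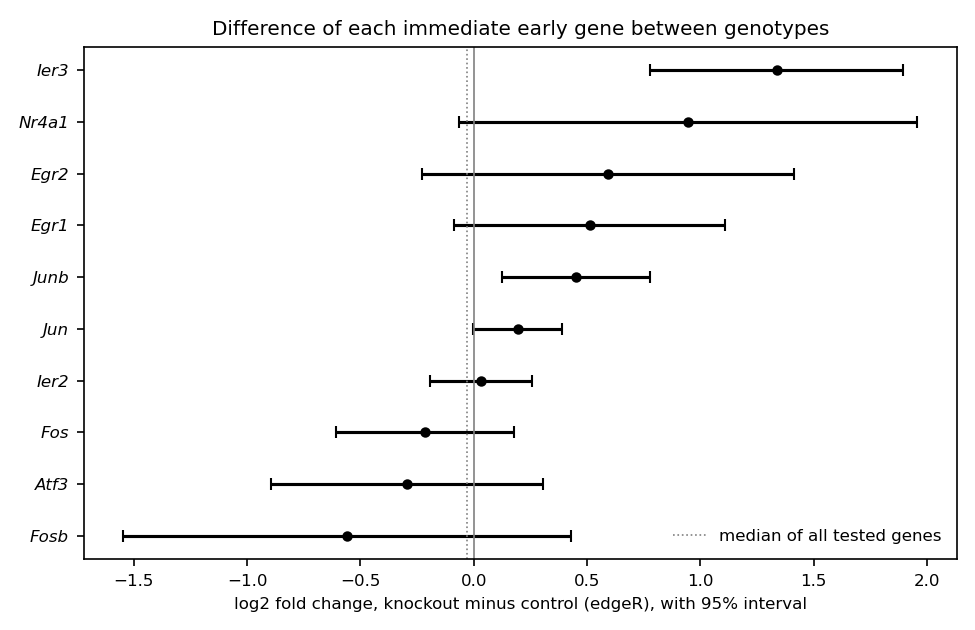
Log2 fold change of each of the 10 members, knockout minus control, from edgeR, as points with 95% intervals over 6 and 6 libraries; the dotted line is the median of all tested genes (-0.03). The intervals of Ier3 and Junb lie above 0, while those of the other 8 members include 0.

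Among the AP-1 subunits, the Fos pair and the Jun pair had point estimates of opposite sign. Fos, the founding member of the family, ranged from 55.6 to 115 CPM in the knockout (median 78.7) and from 73.1 to 122 CPM in the control (median 92.9). The groups overlapped widely, with 3 knockout libraries (4, 6 and 2) below the lowest control. Its log2 fold change was -0.22 ± 0.18 (SE; edgeR adjusted p = 0.53), and the 95% interval ran from -0.61 to 0.18. It was -0.34 without knockout replicate 1, -0.12 without knockout replicate 4 and -0.13 without control replicate 5. Fosb, a close relative that also needs a Jun partner, ranged from 1.54 to 7.24 CPM in the knockout (median 2.54) and from 2.06 to 9.93 CPM in the control (median 4.14). The highest library was control replicate 5 and the lowest knockout replicate 6, and the difference of -0.56 ± 0.46 had an interval of -1.55 to 0.43. It was -0.25 without control replicate 5 and -0.92 without knockout replicate 5.

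Jun, which pairs with Fos proteins or with itself, was the member that varied least within a genotype. It ranged from 132 to 168 CPM in the knockout (median 135) and from 110 to 147 CPM in the control (median 117). Every knockout library lay above 5 of the 6 controls, and only control replicate 2 reached into the knockout range. On the log2 scale the difference was 0.19 ± 0.09 (SE; edgeR adjusted p = 0.23; 95% interval -0.00 to 0.39). Junb, another gene of the Jun family, ranged from 110 to 199 CPM in the knockout (median 159). In the control it ranged from 99.6 to 142 CPM (median 111). Knockout replicates 1, 2 and 3 lay at 181, 199 and 189 CPM, above every control, and knockout replicates 4, 5 and 6 lay within the control range. Its log2 fold change was 0.45 ± 0.15 (SE; edgeR adjusted p = 0.105). Without knockout replicate 4 it was 0.54 with an edgeR adjusted p of 0.0360, where 6.02% of all genes were called higher, and without both replicates 4 it was 0.61 with an edgeR adjusted p of 0.0165, where 8.4% were.

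Atf3, a stress-induced relative of AP-1 that pairs with Jun proteins and often represses its targets, ranged from 19.1 to 49.8 CPM in the knockout (median 25.8) and from 20.9 to 55.1 CPM in the control (median 39.1). Both groups held high and low libraries: knockout replicates 1 and 5 and control replicates 1 and 5 were the 4 highest. Atf3 had a log2 fold change of -0.30 ± 0.28 (SE; edgeR adjusted p = 0.58). It was -0.47 and -0.45 without knockout replicate 1 or 5, -0.18 without knockout replicate 2 and -0.17 without control replicate 5.

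The zinc finger and nuclear receptor members had higher means in the knockout with a wide spread. Egr1, the prototype of its family, ranged from 24.0 to 89.7 CPM in the knockout (median 49.0) and from 23.7 to 49.7 CPM in the control (median 35.5). Knockout replicates 1, 5 and 2 exceeded every control, while knockout replicate 4 was next to the lowest control. Egr1 had a log2 fold change of 0.51 ± 0.28 (SE; edgeR adjusted p = 0.30; 95% interval -0.09 to 1.11), and of 0.27 without knockout replicate 1. Egr2, known for its part in myelination and in restraining T cells, was with Fosb the scarcest of the members, with 1.12 to 6.65 CPM in the knockout (median 2.62) and 1.5 to 2.89 CPM in the control (median 2.10). Its knockout libraries included both the highest (replicate 1) and the lowest (replicate 3) of all 12, and the log2 fold change was 0.59 ± 0.38, or 0.24 without knockout replicate 1. Nr4a1 ranged from 9.45 to 75.7 CPM in the knockout (median 29.1) and from 9.18 to 30.9 CPM in the control (median 16.8). Knockout replicates 1, 2 and 5 exceeded every control, whereas knockout replicates 4 and 6 lay among the low controls. For Nr4a1 the log2 fold change was 0.95 ± 0.47 (SE; edgeR adjusted p = 0.25; 95% interval -0.07 to 1.96). It was 0.51 without knockout replicate 1, and up to 1.20 without other single libraries.

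The pair named immediate early response differed most from each other. Ier2, a small nuclear protein, ranged from 45.1 to 67.4 CPM in the knockout (median 58.1) and from 48.4 to 63.1 CPM in the control (median 56.4). The log2 fold change was 0.03 ± 0.10, with a 95% interval of -0.19 to 0.26, and its sign turned when any of 3 single libraries was left out. Ier3 (ENSMUSG00000003541), also called IEX-1, a small protein linked to ERK signalling, NF-kappaB and cell survival, ranged from 22.5 to 66.0 CPM in the knockout (median 50.1) and from 14.9 to 23.9 CPM in the control (median 16.8). Of the knockout libraries 5 exceeded every control, and knockout replicate 4 (22.5 CPM) fell between the controls, just under control replicates 4 (23.9) and 6 (23.4). Its log2 fold change was 1.34 ± 0.26 (SE), a 2.52-fold higher level, with a 95% interval of 0.78 to 1.89. Its edgeR adjusted p was 0.0512, the smallest of the 10, and it ranked as gene 46 by p among all tested.

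The threshold fell between settings for Ier3. It was called in 9 of 23 other settings, with adjusted p values from 0.000124 (DESeq2) to 0.259 (the replicate number as a block in edgeR) and log2 fold changes from 1.22 to 1.57. Without knockout replicate 4, control replicate 4 or control replicate 6 the edgeR adjusted p was 0.0195, 0.0186 or 0.0493. In those settings 6.02%, 5.03% and 1.88% of all genes were called higher, against 0.0278% in the main test. The log2 fold change of Ier3 was 1.48, 1.42 and 1.41 there, and the cause of the added calls was not tested. The shares called higher were 0.229% with DESeq2's size factors, 1.6% with library size only, 0.222% with robust quasi-likelihood and 2.47% with limma-trend on TPM, the other settings that called Ier3 alone among the members. In the authors' deposited table, Ier3 had an adjusted p of 0.000147 and a log2 fold change of 1.38, the single member under 0.05 there, where 6.35% of all listed genes were under 0.05. Junb followed in the authors' deposited table with an adjusted p of 0.0536.

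**Figure D2:**
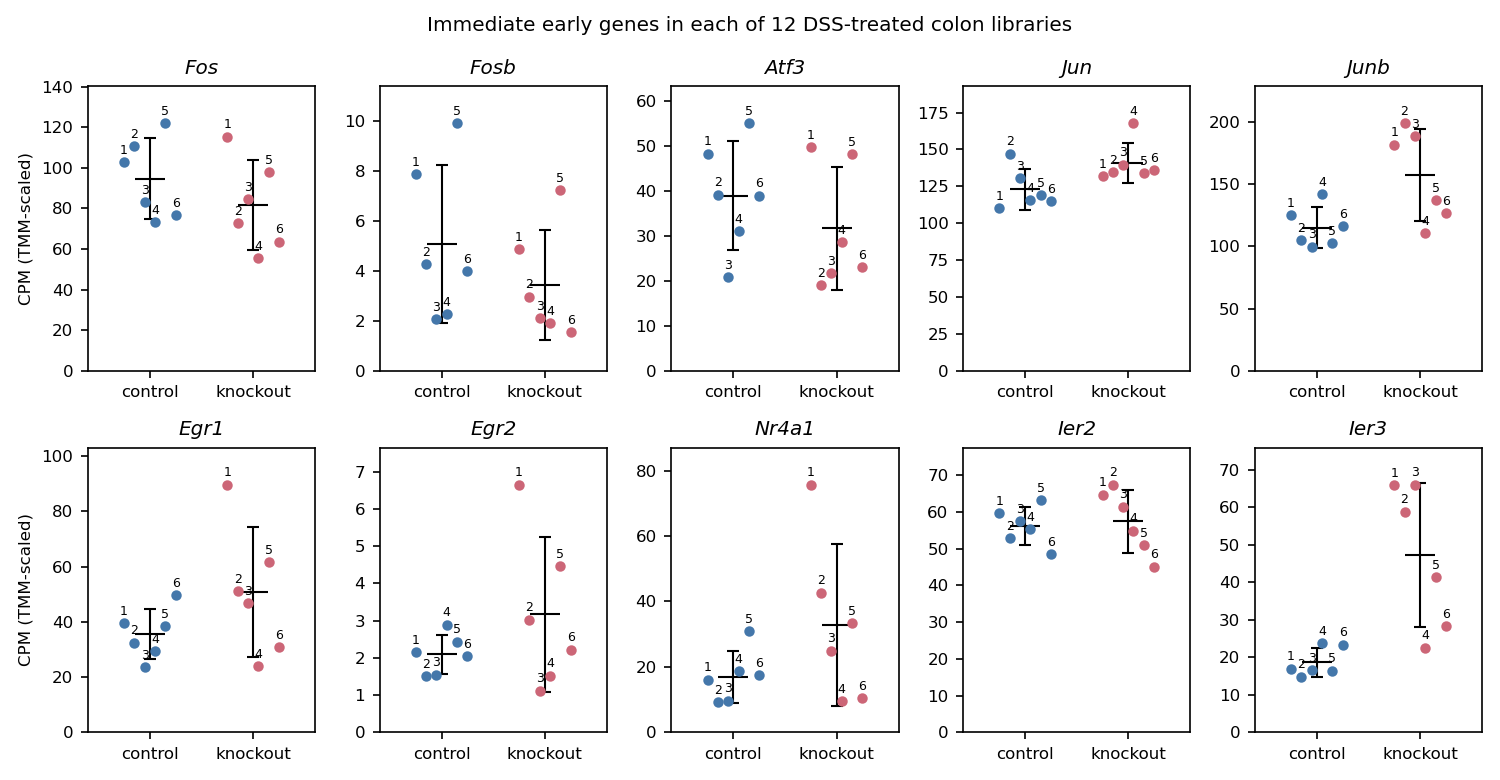
CPM of each member in the 12 libraries, control in blue and knockout in red, with replicate numbers beside the points and the mean ± SD of 6 libraries in black. For Ier3, 5 of 6 knockout libraries lie above all controls; for Fos, Fosb and Atf3 no knockout library lies above all controls.

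Levels of different members were compared in TPM, which the authors scaled by gene length. In the control colon Junb led with 115 ± 19.4 TPM (SD, n = 6), followed by Fos (81.0 ± 15.4), Jun (69.7 ± 7.72) and Ier2 (66.6 ± 5.94). Each of these overlapped its neighbour in range, and a gap followed before Atf3 (35.3 ± 10.4), Ier3 (29.9 ± 6.68), Egr1 (19.1 ± 4.64) and Nr4a1 (12.3 ± 5.39), which again overlapped in turn. Fosb (3.47 ± 2.19) and Egr2 (1.48 ± 0.47) were lowest. In the knockout Ier3 had place 3 at 78.0 ± 29.8 TPM, overlapping in range with Jun (83.2 ± 8.01), Fos (72.9 ± 19.8) and Ier2 (70.9 ± 10.03), and Junb remained first at 164 ± 36.7 TPM.

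The members tended to vary together across libraries, apart from Jun. With the genotype means removed, 35 of the 45 pairs of members correlated above 0 over the 12 libraries, with a median Pearson r of 0.47 and the highest, 0.91, for Junb with Ier3. This is a description with no test, since the libraries share depth and tissue make-up. Of the 10 pairs below 0, 9 included Jun. Within a genotype the median SD of their log2 CPM was 0.53, against 0.27 over all tested genes. Nr4a1 and Fosb were at or above 97.4% and 96.5% of genes in this SD, while Jun and Ier2 were at 12.7% and 26.8%. Knockout replicate 1 was among the 3 highest libraries for 8 of 10 members and knockout replicate 4 among the 3 lowest for 5. The order of libraries still differed between members. Control replicate 5 was the highest library of all for Fos, Fosb and Atf3, but the second lowest for Ier3 and Junb. Knockout replicates 2 and 3 were among the 3 highest for Ier3 and Junb and among the 3 lowest for Atf3. Jun ran its own course: knockout replicate 4, low for most members, was its highest library.

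**Figure D3:**
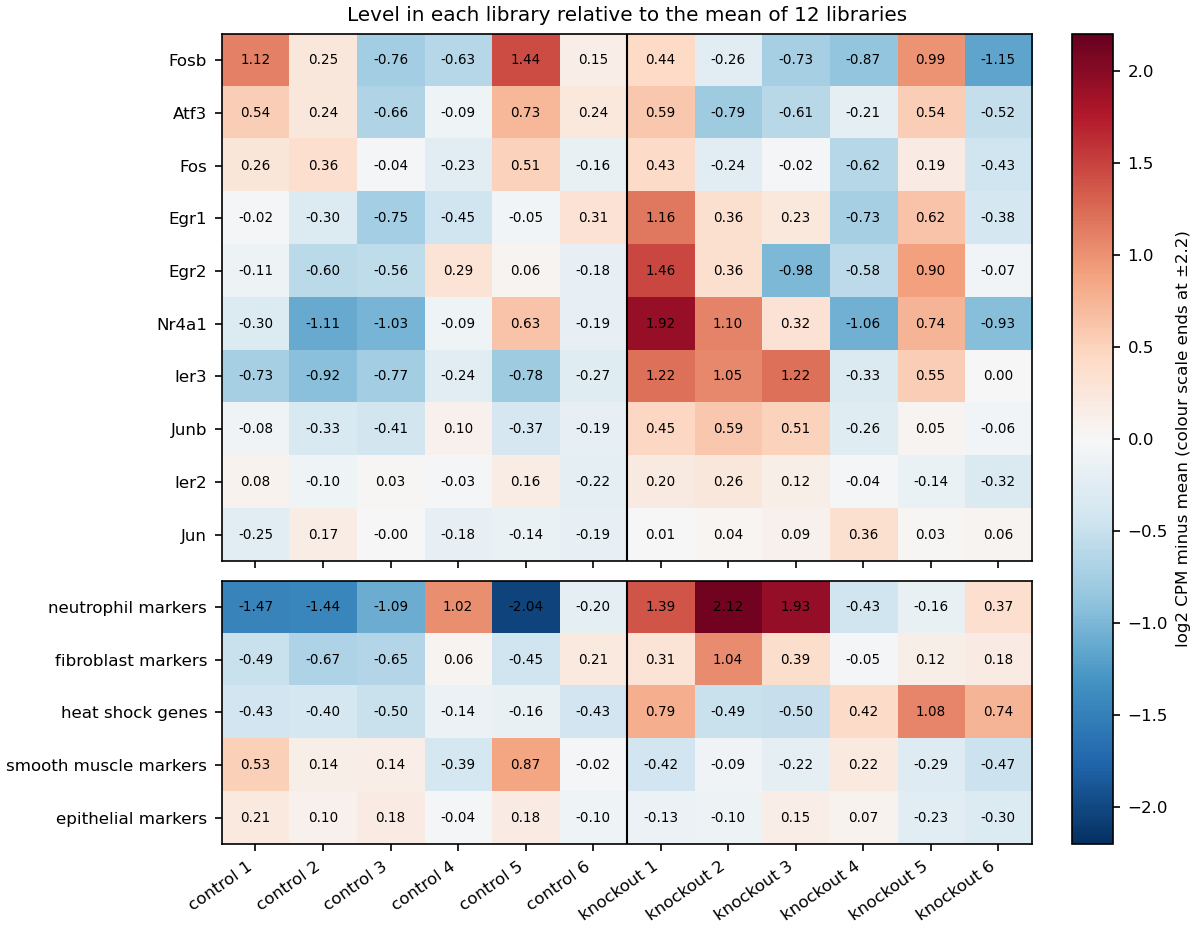
Log2 CPM of each member (upper block) and mean log2 CPM of 5 marker or stress lists (lower block), minus the mean of 12 libraries, per library. Fosb and Atf3 are highest in control replicates 1 and 5 and in knockout replicates 1 and 5, while Ier3 and Junb are highest in knockout replicates 1, 2 and 3, as the neutrophil markers are.

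Within each library the ratio of a member to Fos does not depend on scaling between libraries. This comparison was chosen after the values were seen, and the adjusted p values below do not account for that choice. The log2 ratio of Ier3 to Fos lay between -1.30 and -0.31 in the 6 knockout libraries and between -2.89 and -1.61 in the 6 controls. The groups did not overlap for Ier3, as for 0.32% of all genes in the higher direction and 0.0417% in the lower. The mean ratio was 1.47 ± 0.27 higher in the knockout on the log2 scale (SE; limma-trend over 14392 genes, adjusted p = 0.000528), where 4.48% of genes were called higher relative to Fos and the median gene shifted by 0.20. It ran from 1.36 to 1.62 with single libraries left out and stayed past the threshold each time. The other 8 ratios did not pass; the nearest were those of Nr4a1 (0.93 ± 0.32, limma-trend adjusted p = 0.0904) and Junb (0.66 ± 0.24, limma-trend adjusted p = 0.113). Fosb and Atf3 kept ratios to Fos within -0.29 ± 0.35 and -0.10 ± 0.26 between genotypes.

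**Figure D4:**
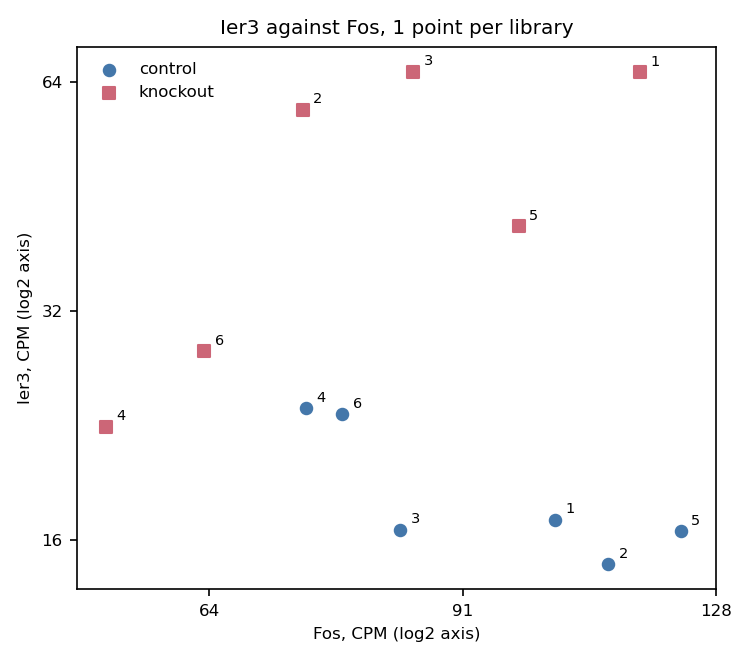
Ier3 against Fos in CPM, both on log2 axes, 1 point per library with its replicate number. The 6 knockout libraries have higher log2 Ier3 to Fos ratios (-1.30 to -0.31) than the 6 controls (-2.89 to -1.61), although single values of each gene overlap.

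Other immediate early genes had higher means in the knockout more often than lower. Of 27 listed, 26 were tested and Egr4 had 0 counts in every library. By edgeR 0 of 26 were called, 15 were higher and 0 lower at an unadjusted p under 0.05, and DESeq2 called 10 higher and limma voom 0. Of all genes, 13.1% were higher and 9.48% lower at that p. DESeq2 called 7.13% of all genes it tested higher and limma voom 0.208%. The median log2 fold change was 0.40, against -0.03 over all genes. The smallest p values belonged to Jdp2, a repressor that pairs with Jun (1.25 ± 0.28; 16.2 against 6.80 CPM), and Zfp36, the decay factor tristetraprolin that binds AU-rich elements (0.54 ± 0.13; 144 against 98.6 CPM), given as log2 fold change with SE and knockout against control means. The most abundant, Klf4 and Klf6, stood at -0.31 ± 0.16 and 0.18 ± 0.20, the former a factor of differentiated epithelium. Fosl2, a Fos relative, was at 0.31 ± 0.09, while Jund, the other Jun gene, was at -0.25 ± 0.16. For Jdp2 and Zfp36 the edgeR adjusted p was 0.0531 and 0.0559.

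Among 15 genes of feedback on MAP kinase signalling, edgeR called 0, DESeq2 called 3 higher and limma voom 0, and 8 were higher and 0 lower at an unadjusted p under 0.05 (median 0.34). The shares over all genes were 13.1% higher at that p, 7.13% higher by DESeq2 and 0.208% higher by limma voom. Dusp2, a nuclear MAP kinase phosphatase, was at 1.05 ± 0.26 (log2 fold change, SE) and Nab2, a corepressor of EGR proteins that is itself an EGR target, at 0.61 ± 0.16. Dusp1, the phosphatase of p38 and JNK, chosen after its values were seen, had the largest estimate of the list, 1.27 ± 0.34 (110 against 45.6 CPM; edgeR adjusted p = 0.0636). The most abundant, Errfi1, an inhibitor of the EGF receptor, and Nab1 stood at 0.64 ± 0.24 and 0.05 ± 0.15.

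The kinases and factors upstream gave a median of -0.01 over 23 genes, with 2 higher and 0 lower at an unadjusted p under 0.05. EdgeR and limma voom called 0 and DESeq2 called 2 higher. Over all genes 13.1% were higher at that p, and DESeq2 called 7.13% and limma voom 0.208% higher. These shares apply to both lists of this paragraph. The most abundant, Mapk3, which encodes ERK1, and Rps6ka1, which encodes a kinase downstream of ERK, stood at -0.12 ± 0.11 and -0.18 ± 0.10 (log2 fold change, SE). Srf, chosen after its values were seen, was at 0.08 ± 0.09. The 2 smallest p values were those of Crem, a CREB relative (0.83 ± 0.21), and Elk3, an ETS partner of SRF (0.68 ± 0.19). Among 12 partners of Atf3 in the integrated stress response, 6 were higher at an unadjusted p under 0.05 (median 0.30; 0 called by edgeR, 5 by DESeq2, 1 by limma voom), led by Cebpb (1.41 ± 0.27; edgeR adjusted p = 0.0512) and Ddit3, which encodes CHOP (0.46 ± 0.12). The most abundant, Nupr1, a stress-induced chromatin protein, and Atf4 itself were at 0.06 ± 0.24 and 0.17 ± 0.09.

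Genes listed as later targets of AP-1 and EGR1, many of them cytokines, proteases and growth factors of inflamed tissue, had the largest median of the pathway lists, 1.75 over 18 genes. By edgeR 0 were called, 16 were higher and 0 lower at an unadjusted p under 0.05, and DESeq2 called 12 and limma voom 1. The matching shares of all genes called higher were 13.1%, 7.13% and 0.208%. Hmox1, which degrades haem, had a knockout mean of 76.8 ± 40.4 CPM and a control mean of 19.6 ± 6.97 CPM (SD over 6 libraries), and for Tnc, a matrix protein of healing tissue, these means were 509.5 ± 191 and 204 ± 64.5 CPM. Mmp13, a collagenase and with Tnc the most abundant, had a log2 fold change of 1.98 ± 0.66 (SE). This list, like the members and the other lists, was chosen with earlier results of these data known, so their directions are no independent evidence.

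Heat shock genes, which encode chaperones, were high in 4 knockout libraries. Their summed level was 8156, 6903, 10837 and 8833 CPM in knockout replicates 1, 4, 5 and 6, and 3594 to 4904 CPM in the other 8 libraries. Of 13 genes, 9 were higher at an unadjusted p under 0.05 (median 0.62; 0 called by edgeR, 8 by DESeq2, 0 by limma voom), among them Hsph1 (1.83 ± 0.42) and Bag3 (0.39 ± 0.10). Across all genes 13.1% were higher at that p, and DESeq2 called 7.13% and limma voom 0.208% higher. The most abundant, Hspa8 and Hsp90ab1, were at 0.91 ± 0.27 and 0.36 ± 0.21. Knockout replicates 2 and 3, with the lowest heat shock sums of all, held 58.8 and 66.0 CPM of Ier3, above every control. Of the 4 libraries with high sums, replicates 1, 5 and 6 held Ier3 above every control and replicate 4 did not.

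Markers of cell types differed between the genotypes as well. Neutrophil markers summed to 299 to 1442 CPM in the knockout and 147 to 685 in the control, with 12 of 12 above 0 (median log2 fold change 1.76). Monocyte and macrophage markers summed to 1246 to 2603 against 857 to 1532 CPM (12 of 12 above 0, median 0.44), fibroblast markers to 4395 to 10400 against 2681 to 5348 CPM (10 of 10, median 0.69) and endothelial markers to 333 to 667 against 233 to 354 CPM (8 of 8, median 0.59). Smooth muscle markers were lower in 8 of 8 (median -0.46; 1848 to 2994 against 1898 to 4372 CPM), and colon epithelial markers in 10 of 12 (median -0.21; 13474 to 18938 against 14809 to 19643 CPM). Exocrine pancreas markers had a median of -2.48, with 12 of 12 below 0, but control replicate 6 alone held 29408 CPM of them. Their sums ran from 38.3 to 1935 CPM in the knockout and from 78.8 to 29408 in the control. The median sums were 1109 and 1242 CPM, so these estimates rest largely on 1 library. By edgeR 0 markers of these 7 lists were called; at an unadjusted p under 0.05 there were 10 neutrophil, 7 macrophage, 7 fibroblast and 6 endothelial markers higher, and 4 smooth muscle, 5 epithelial and 1 pancreas markers lower. DESeq2 called 5 neutrophil, 7 macrophage, 7 fibroblast and 4 endothelial markers higher and 2 smooth muscle markers lower, and limma voom called 1 macrophage marker. Over all genes 45.1% had a log2 fold change above 0, and 13.1% were higher and 9.48% lower at an unadjusted p under 0.05. DESeq2 called 7.13% of all genes higher and limma voom 0.208%, and DESeq2 called 416 of 15352 lower. Ier3 and Junb were highest in the 3 knockout libraries with the most neutrophil marker RNA, replicates 1, 2 and 3. Control replicate 4, with the most of it among the controls, was also the highest control for Ier3 (23.9 CPM) and Junb (142 CPM). It carried more neutrophil marker RNA than knockout replicates 4, 5 and 6, which held 22.5, 41.4 and 28.3 CPM of Ier3. The part of cell make-up and of heat shock in the members' values was not tested.

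The genes most like the members across libraries were sought among 11564 genes with a mean of at least 5 CPM. With the genotype means removed, the mean of the 10 members over 12 libraries was most like Hbegf (Pearson r = 0.91), Ccn1 (0.89), Trib1 (0.86), Errfi1 (0.86) and Ptk2 (0.86), a description with no test, since these genes were picked for their likeness from libraries that share their depth and tissue make-up. Hbegf encodes a ligand of the EGF receptor, Ccn1 a matricellular protein, and Ptk2 focal adhesion kinase. Between genotypes they stood at 0.26 ± 0.25, 0.90 ± 0.32, 0.08 ± 0.17, 0.64 ± 0.24 and 0.04 ± 0.07 on the log2 scale (SE), none past the threshold of edgeR.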

How the data were processed

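Colon libraries of 6 knockout and 6 control mice were compared; groups and replicate numbers follow the labels. The authors deposited 1 table of the series with whole-number read counts per gene, TPM scaled by them for length and depth, a mean TPM per group, a log2 ratio of those means, and the p-value of an unnamed test with its adjusted value, all per the file headers. Per the labels' protocols RNA was taken with Trizol and libraries were made with a SMARTER kit. The submitters' processing notes list GRCm38, mm10 and mm39; for aligner, counter and strand setting, nothing is given in the sources used here.

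The deposited counts went into edgeR 4.0.16 (R 4.3.3): filterByExpr (minimum count 10, minimum total 15), TMM, glmQLFit and glmQLFTest of knockout minus control without covariates, and Benjamini-Hochberg adjustment over 14393 genes at 0.05. The SE comes from the fold change and F statistic. Log2 CPM used a prior count of 2. Alternatives were other scalings and filters, DESeq2 1.42.0, limma 3.58.1 voom, the replicate number as a block and each library left out; leaving out both replicates 4, robust estimation, limma-trend on log2(TPM + 1) and ratios to Fos were chosen after seeing the data. The members and 13 companion lists were chosen with earlier results of these data known. Named genes are the members, Pck1, the 2 genes of a list with the smallest p and the 2 with the highest mean CPM, and the 5 genes most like the members among those with a mean CPM of at least 5; other names were chosen after their values were seen. For the 7 cell type lists the rule was not carried out, and sums and counts are given in place of named markers. Of 192 list genes all were in the table; Ddit3 had 2 IDs, and the one with more counts was used. Columns from samples of another series numbered 0. The least different of 66 library combinations had a chi-square of 18.8 per gene, so each was counted as 1 sample. The p-values set the difference between genotypes against the spread between these mice. The fit was tested on simulated data drawn from these libraries. Sequences are from RefSeq (GRCm38.p6) and GENCODE M21.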

Additional observations from a re-analysis of the deposited data

Results flagged for a closer look

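Jun in knockout replicate 4 stood apart from the other knockouts, at 168 CPM against 140 CPM in the next library; the gap was 0.78 of the range of the group, above Dixon's limit of 0.625 for 6 samples. It was the single one flagged of 20 groups of values looked at (10 members in each genotype), and chance flags about 1 in 20. The same library was among the 3 lowest for 5 other members. Without it the log2 fold change of Jun was 0.14 in place of 0.19.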

How the results depend on the processing

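The number of members called depended on the setting, while directions held for all members except Ier2. In place of 0 members, 1 (Ier3) was called with DESeq2's size factors (0.229% of all genes called higher), library size only (1.6%), robust quasi-likelihood (0.222%) and limma-trend on log2(TPM + 1) (2.47%), and 2 (Ier3 and Junb) by DESeq2's test (7.13%) and without both replicates 4 (8.4%). With single libraries left out the count ran from 0 to 2, with 2 without knockout replicate 4 (6.02%) and 1 without control replicate 4 (5.03%) or control replicate 6 (1.88%); the cause was not tested. In the main test 0.0278% were called higher. The median log2 fold change of the members ran from 0.23 to 0.37 over 23 settings. The log2 fold change of Ier2 turned to -0.0049 without knockout replicate 1, -0.019 without knockout replicate 2 and -0.0070 without control replicate 6, in a range of -0.019 to 0.093 over single libraries left out. The replicate numbers gave no sign of pairing: deviations of same-numbered libraries had correlations of -0.50 to 0.08, and with the replicate block edgeR called 0 members and, of all genes, 0 higher and 1 lower, with a median of the members of 0.30. Counts of 17 to 163 for Egr2 and Fosb set the widest counting error among the members.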
